A study of Mus musculus with 8 samples.

Results

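The genes described here repair DNA double-strand breaks: Mre11a (also called Mre11), Rad50, Nbn, Xrcc6, Xrcc5, Atm, Brca1, Bard1 and Brca2. Every probe set (a group of short array probes for 1 transcript) that the platform annotation assigns to 1 of these 9 symbols was taken, which gave 16 of 45037 probe sets that are not controls. The same annotation names 18193 genes with a probe set of their own. The arrays measured polysomal mRNA, the mRNA bound by clusters of ribosomes, in mouse one-cell embryos treated with α-amanitin (4 arrays) and in mouse oocytes arrested at metaphase II, MII (4 arrays). Each array used RNA of 160 to 500 eggs or embryos, the replicates were independent per the study's design text, and the RNA had passed 2 rounds of amplification. α-Amanitin blocks RNA polymerase II, and no such treatment is given for the oocytes, so embryo stage and inhibitor cannot be told apart. The sources used here do not give the strain, the age of the females or the way the embryos were obtained.

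A double-strand break is held and first processed by the complex of Mre11a, a nuclease, Rad50, an ATPase that tethers DNA ends, and Nbn, which brings in the kinase Atm. The heterodimer of Xrcc6 and Xrcc5, known as Ku, instead caps the ends and directs them to non-homologous end joining. Brca1 and Bard1 form a ubiquitin ligase that favours homologous recombination, a pathway that also needs Brca2. Eggs and early embryos depend on mRNAs made while the oocyte grew, and the paternal genome is remodelled in the one-cell embryo before it replicates.

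By their brightest probe sets, both Ku genes and all 3 genes of the Mre11a-Rad50-Nbn complex were higher on polysomes of one-cell embryos, by 2.47-fold to 6.33-fold. The other kept probe set of Mre11a did not pass, and with both averaged its log2 change was 1.28 in place of 2.34. The 3 genes of the Brca group were lower by their brightest probe sets, with log2 changes from -1.54 to -1.03, and Atm did not pass the test. The fall of Brca1 rested on that probe set alone. With the spiked-in hybridization controls as a covariate, neither these 3 Brca group genes nor Xrcc5 passed. Of the 16 probe sets, 13 were kept, meaning that in 4 or more of the 8 arrays their signal exceeded the median of that array. Of these 13, 5 were higher and 3 lower in one-cell embryos (limma, adjusted p under 0.05), each called probe set being the brightest of its gene. Over all 23336 probe sets kept, 32.1% passed, 19.3% as higher and 12.8% as lower. Counted by the brightest kept probe set of each gene, 8 of the 9 genes passed, against 34.8% of 12359 genes. The median change of the 13 probe sets was 0.22 and that of all probe sets kept 0.17. By the brightest kept probe set of each gene, the median was 1.30 for the 9 genes and 0.16 for all genes. All changes are log2 values of signal + 10, one-cell embryo minus MII oocyte, with the limma standard error (SE), and folds are taken on that scale, which understates the change of dim probe sets. Signals are in arbitrary units relative to each array's total, so fewer copies of an mRNA and less loading onto ribosomes cannot be told apart. Levels are not compared between probe sets, except to pick the brightest of a gene and in the summed signals of marker genes.

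**Figure D1:**
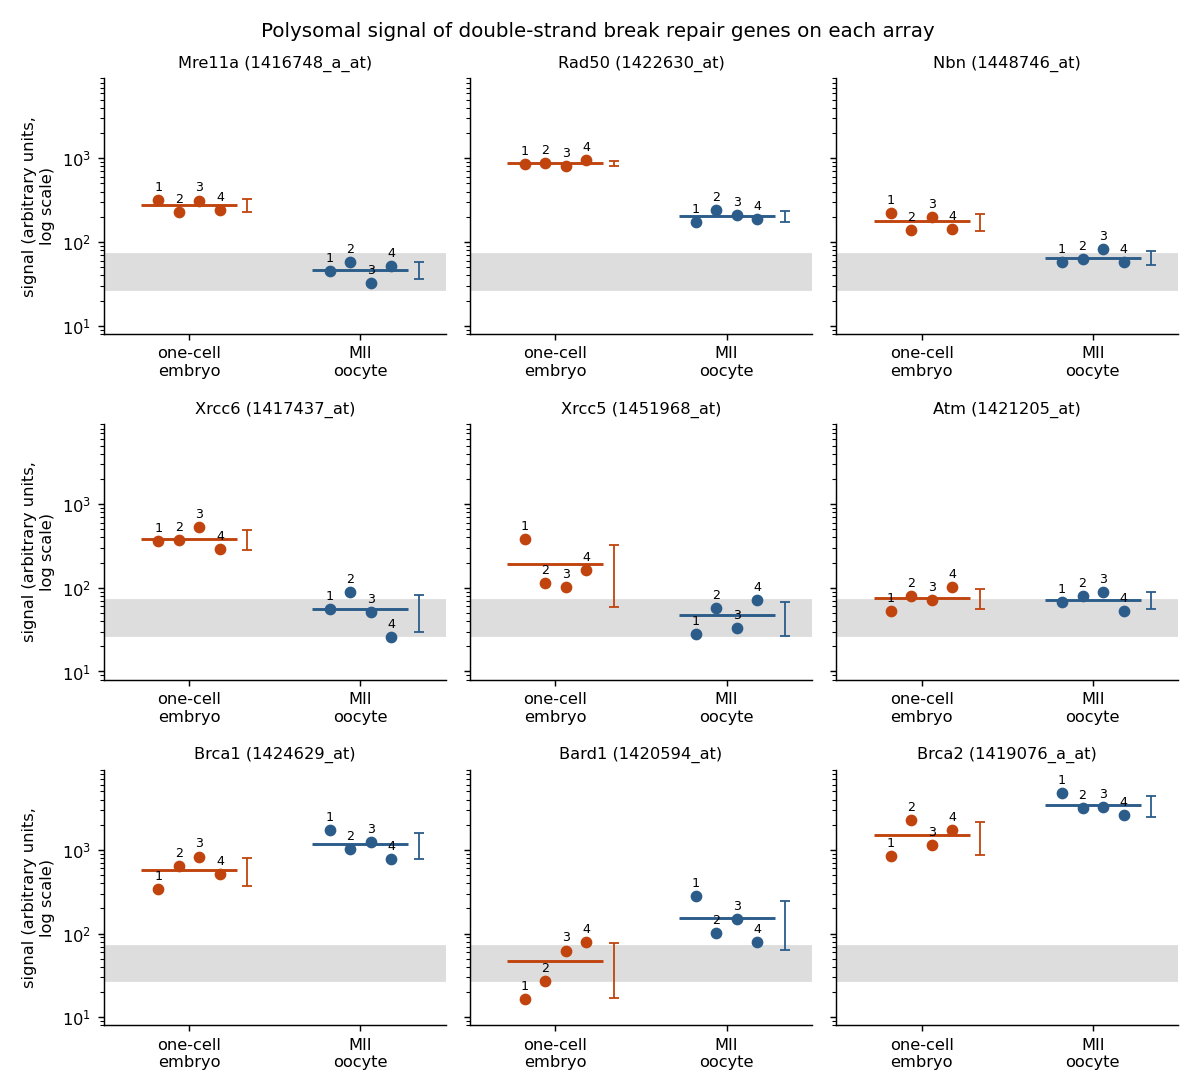
Signal of the brightest kept probe set of each gene on every array, on a log axis in arbitrary units, with one-cell embryos on the left and MII oocytes on the right. Points carry the replicate number, long lines are group means, error bars are 1 SD (n = 4), and the grey band spans the array medians (26.9 to 71.8). The groups are apart for Mre11a, Rad50, Nbn, Xrcc6, Xrcc5 and Brca2, and they overlap for Atm, Brca1 and Bard1.

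How strongly an mRNA is translated can depend on the bases next to its cap, as in mRNAs of the translation machinery that begin with a C and a run of pyrimidines. RefSeq windows of GRCm38.p6 were at hand for 7 of the 9 genes, and the first 20 bases from the annotated start are shown in lower case, with runs of at least 4 bases C or T in capitals.
Mre11a, chr9:14784654-14784673, plus strand: aatggaTCTCgcgagaagta
Xrcc6, chr15:82016369-82016388, plus strand: gttgtgcgtgatgacgcaac
Xrcc5, chr1:72307421-72307440, plus strand: atgctcagagcccatggctt
Atm, chr9:53536652-53536671, minus strand: tttatagagccggaagcggg
Brca1, chr11:101551936-101551955, minus strand: gTTCCgaaaggctagcgcta
Bard1, chr1:71102953-71102972, minus strand: agggcgtggcctaaagccgg
Brca2, chr5:150522621-150522640, plus strand: gggCTTTTCgcgggagcggg
None of the 7 begins with a C followed by 4 bases that are each C or T, as 2.49% of 27025 genes in the table do. A pyrimidine run lies in 3 of the 7 windows, against 53.3% of all genes. Among 61 ribosomal protein genes, known for this start, 12 have it at the start annotated here. The annotated starts of 7 genes therefore cannot show that their mRNAs lack it.

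The arrays differed in quality. The median signal of one-cell array 1 was 71.8, while those of one-cell arrays 2 to 4 were 27.8 to 37.9 and those of MII arrays 26.9 to 33.8. The geometric mean over 18 spiked-in hybridization controls was also highest on one-cell array 1, at 14879, where one-cell arrays 2 to 4 had 857 to 3718 and MII arrays 905 to 1364. Correlations of log2 signal over the probe sets kept were 0.763 to 0.944 between one-cell arrays and 0.929 to 0.958 between MII arrays. All 12 oocyte markers on the array lay above the array median on at least 1 array of each group. Of 13 markers of cumulus and granulosa cells, the somatic cells around the egg, 7 were kept and 1 (Cyp11a1) was higher. Their summed signal was 420 to 1590 for one-cell embryos and 536 to 666 for MII oocytes, Amh lay at or below the median on all arrays, and no marker was at 0. Of 10 markers of sperm and spermatids, 6 were kept, 1 (Prm2) was higher and 1 (Akap4) lower, and Smcp, Tnp1 and Tnp2 lay at or below the median on all arrays. Their sum was 1214 to 2672 for one-cell embryos and 2713 to 3517 for MII oocytes, most of it from Odf2 (1501 ± 803 and 2684 ± 426, SD, n = 4 each). Another Odf2 probe set passed as higher, and the mean over all kept Odf2 probe sets changed by 0.22 (limma adjusted p = 0.49). The part of array quality and of these markers in the repair gene results was not tested except where values without an array or with the controls in the fit are given.

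Mre11a, the nuclease of the break-binding complex, had signals of 321, 226, 313 and 242 on one-cell arrays 1 to 4, against 44.9, 57.9, 32.5 and 51.4 on MII arrays 1 to 4. The lowest one-cell array was several times brighter than the brightest MII array. The mean was 275 ± 48.6 in one-cell embryos and 46.7 ± 10.8 in MII oocytes (SD, n = 4 each), a log2 change of 2.34 ± 0.30 or 5.06-fold (limma adjusted p = 2.04e-05). Of the probe sets kept, 4.36% had a larger change. This value belongs to probe set 1416748_a_at. The other probe set of Mre11a, 1441990_at, ranged from 45.2 to 93.9 in one-cell embryos and from 32.4 to 81.5 in MII oocytes. Its groups overlapped and its change of 0.22 ± 0.39 did not pass (limma adjusted p = 0.73, 95% interval -0.60 to 1.03). The mean over both probe sets still passed at 1.28 (limma adjusted p = 0.0027, where 34.9% of genes passed on such means), so the size of the Mre11a change rests on which probe set is read.

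Rad50, the tethering ATPase, varied least between replicates of the genes described. Its signals were 848.5, 873.5, 804 and 957 on the one-cell arrays, against 171, 243, 210 and 189 on the MII arrays. The coefficient of variation was 7.4% in one-cell embryos and 15.2% in MII oocytes, and the groups were far apart. Rad50 changed by 2.05 ± 0.26, or 4.15-fold (limma adjusted p = 1.64e-05). A second probe set of Rad50, 1425939_at, was too dim to be kept. It had signals of 82.9, 23.6, 35.2 and 29.2 in one-cell embryos and 22.8, 21.5, 31.7 and 31.5 in MII oocytes, and its change in a fit without the filter was 0.41 (95% interval -0.59 to 1.40).

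Nbn, the subunit that recruits Atm, had signals of 221, 141, 201 and 144 in one-cell embryos, against 57.5, 62.7, 83.1 and 56.9 in MII oocytes. The groups did not overlap. The change was 1.30 ± 0.30, or 2.47-fold (limma adjusted p = 0.00328), the smallest of the 3 subunits by their brightest probe sets. The averaged Mre11a probe sets, at 1.28, lay level with it. Nbn has 1 probe set on the array. Atm itself, the kinase that Nbn brings to the break, had signals of 52.9, 79.5, 71.1 and 101 in one-cell embryos and 68.0, 79.3, 89.2 and 52.6 in MII oocytes. These ranges were nearly the same, and the change was 0.06 ± 0.33 (limma adjusted p = 0.926). The 95% interval of -0.65 to 0.76 leaves room for a change of either sign. The dimmer Atm probe set, 1428830_at, had 27.9, 42.8, 19.4 and 5.7 in one-cell embryos, against 36.3, 41.5, 38.7 and 48.6 in MII oocytes. It lay above the array median on 1 of 4 one-cell arrays and on all 4 MII arrays, and its change of -0.72 ± 0.48 did not pass (limma adjusted p = 0.286, 95% interval -1.73 to 0.29).

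Xrcc6, the smaller Ku subunit, showed the largest change of the 9 genes. Its signals were 358, 374, 532 and 287.5 in one-cell embryos, against 55.4, 88.7, 51.3 and 25.8 in MII oocytes. All 4 one-cell arrays lay above all 4 MII arrays, and the last MII value was below that array's median of 31.7. The change was 2.66 ± 0.34, or 6.33-fold (limma adjusted p = 2.04e-05), and 2.77% of the probe sets kept changed by more. Its second probe set, 1428504_at, was below the array median on every array (5.8 to 13.8 in one-cell embryos and 2.6 to 7.9 in MII oocytes) and gives no usable level.

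Xrcc5, the larger Ku subunit, had signals of 387, 115, 103 and 161.5 in one-cell embryos, against 27.7, 56.9, 33.2 and 72.1 in MII oocytes. The groups did not overlap, but array 1 stood high among the one-cell arrays. The change was 1.69 ± 0.41, or 3.22-fold (limma adjusted p = 0.00484). Without one-cell array 1 it was 1.30 ± 0.33 (limma adjusted p = 0.00623). With the hybridization controls as a covariate it was 0.90 ± 0.35 and did not pass (limma adjusted p = 0.0737). Xrcc6 under the same covariate changed by 2.86 ± 0.38.

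**Figure D2:**
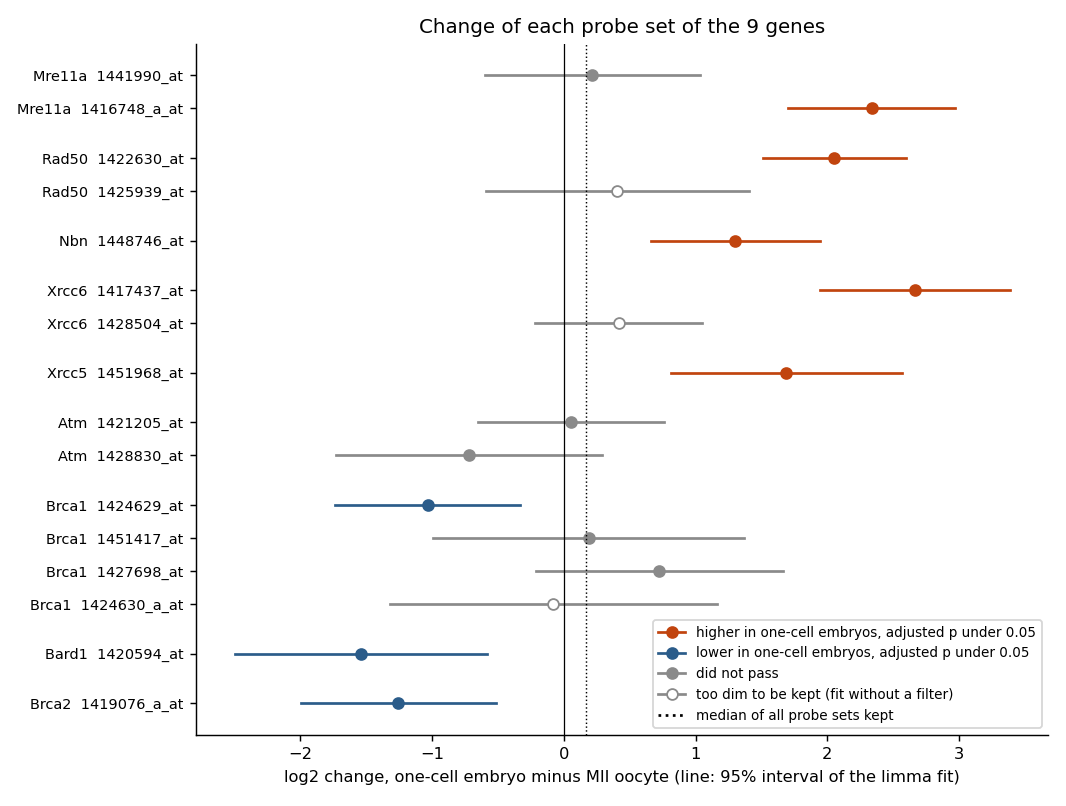
Log2 change of all 16 probe sets, one-cell embryo minus MII oocyte, with the 95% interval of the limma fit. Orange marks the 5 probe sets that passed as higher and blue the 3 that passed as lower, open circles are the 3 probe sets too dim to be kept, and the dotted line is the median of all probe sets kept (0.17). The other probe sets of genes with a called probe set have intervals that include 0.

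Brca2, which is needed for homologous recombination, was the only gene of the Brca group whose groups did not overlap. Its signals were 855, 2299, 1147.5 and 1709 in one-cell embryos, against 4813, 3126, 3251 and 2606 in MII oocytes. The highest one-cell array (2299) and the lowest MII array (2606) were close. Brca2 averaged 1503 ± 638 in one-cell embryos and 3449 ± 951 in MII oocytes (SD, n = 4 each), a change of -1.26 ± 0.35 (limma adjusted p = 0.0107).

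Brca1 was read by 4 probe sets, of which 1 passed. The brightest, 1424629_at, had signals of 340, 643, 834 and 510 in one-cell embryos, against 1721, 1026, 1237 and 775 in MII oocytes. The highest one-cell array exceeded the lowest MII array. The change was -1.03 ± 0.33 (limma adjusted p = 0.0243). Probe set 1427698_at ranged from 48.5 to 190 in one-cell embryos and from 21.4 to 61.3 in MII oocytes, and its change of 0.72 ± 0.44 did not pass (limma adjusted p = 0.243). Probe set 1451417_at (22.2 to 107 in one-cell embryos, 15.4 to 147 in MII oocytes) changed by 0.19 ± 0.56, which did not pass either. The last probe set, 1424630_a_at, was too dim to be kept. The mean over the 3 kept probe sets of Brca1 changed by -0.04 and did not pass (limma adjusted p = 0.936), so the fall of Brca1 rests on its brightest probe set.

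Bard1, the partner of Brca1 in the ubiquitin ligase, had signals of 16.6, 27.4, 62.8 and 79.9 in one-cell embryos, against 280, 103, 151 and 78.5 in MII oocytes. The groups overlapped slightly, at one-cell array 4 and MII array 4, and 2 of the 4 one-cell arrays lay at or below their own median. The change was -1.54 ± 0.45 (limma adjusted p = 0.0147). All 3 genes of the Brca group were dimmest on one-cell array 1, where the controls were brightest. Without that array they still passed, at -1.02 ± 0.30 for Brca2, -0.80 ± 0.30 for Brca1 and -1.23 ± 0.40 for Bard1 (limma adjusted p = 0.0141, 0.0481 and 0.0264). With the hybridization controls as a covariate none of the 3 passed, at -1.0 ± 0.39, -0.49 ± 0.31 and -0.96 ± 0.48 (limma adjusted p = 0.0758, 0.286 and 0.165). Without MII array 1, which was the brightest for all 3, Brca1 (-0.84) and Bard1 (-1.21) did not pass (limma adjusted p = 0.0903 and 0.0776). Brca1 also did not pass without MII array 3 or without one-cell array 4, at -0.99 in either case (limma adjusted p = 0.0642 and 0.063).

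Groups did not overlap in 6 of the 13 probe sets kept, 5 higher and 1 lower in one-cell embryos, where 32.6% of all probe sets kept did not overlap. The direction of the 8 called probe sets was the same in each of the 20 alternative settings in which they were tested. Relative to the median of all probe sets kept, the changes were 2.49 for Xrcc6, 2.17 for Mre11a, 1.88 for Rad50, 1.52 for Xrcc5 and 1.13 for Nbn as deposited. After quantile normalization, where the median of all probe sets kept was -0.12 against 0.17 as deposited, the same values were 2.46, 2.11, 2.09, 1.56 and 0.98. Those of the Brca group were -1.71 and -1.74 for Bard1, -1.43 and -0.75 for Brca2 and -1.20 and -0.86 for Brca1, as deposited and after quantile normalization. Of all probe sets called, 60.2% were higher as deposited and 48.7% after quantile normalization.

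**Figure D3:**
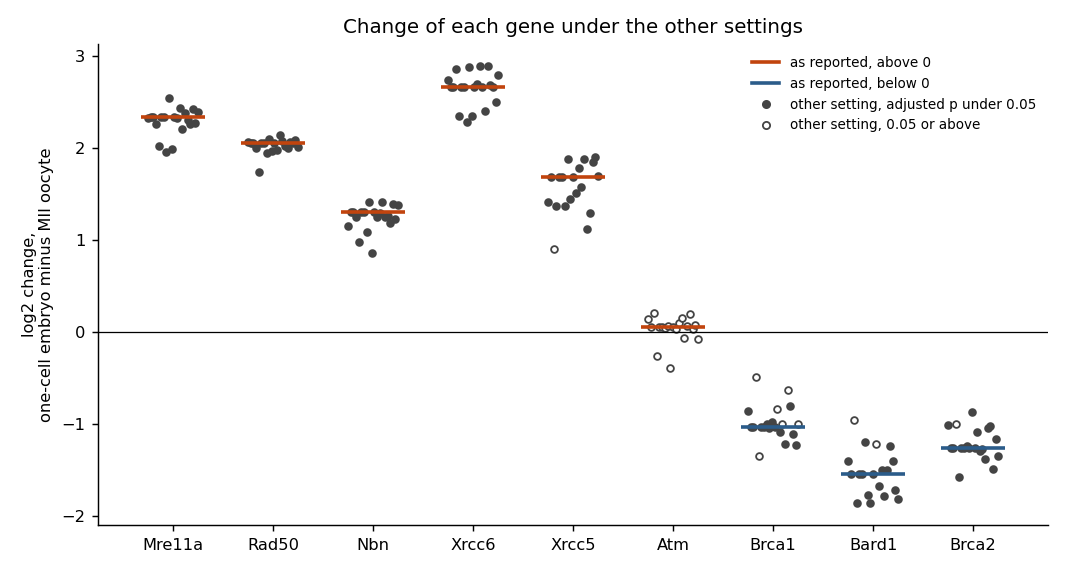
Log2 change of the brightest kept probe set of each gene, one-cell embryo minus MII oocyte, on the vertical axis, with a line for the value as reported and 1 dot for each other setting of the fit. Filled dots have an adjusted p under 0.05 and open dots one of 0.05 or more. All dots of the 5 higher genes lie above 0 and all dots of Brca1, Bard1 and Brca2 below it, while those of Atm lie on both sides.

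Whether partners changed unequally was asked by the log2 ratio of 2 genes within each array, taken from signal + 10 of the brightest kept probe sets. Nbn relative to Mre11a was -0.52, -0.64, -0.62 and -0.71 in one-cell embryos, against 0.30, 0.10, 1.13 and 0.12 in MII oocytes, a difference of -1.04. The one-cell values were nearly alike and lay below all MII values. Nbn relative to Rad50 was -1.90, -2.55, -1.95 and -2.65 in one-cell embryos, against -1.43, -1.80, -1.24 and -1.57 in MII oocytes, a difference of -0.75, again with no overlap. The exact permutation test (two-sided) gave p = 0.0286 for both, which is the lowest possible with 4 arrays a group. Adjusted over the 6 pairs by Benjamini-Hochberg, this exact permutation p became 0.0857. No pair passed after adjustment (exact permutation test), and 2 had an unadjusted p under 0.05. Given that lowest possible p, a pair could pass adjustment only if several pairs reached it together. The lack of calls therefore says little about any single pair. The result for Mre11a rests on its brightest probe set. With both Mre11a probe sets averaged, the difference of Nbn relative to Mre11a was 0.02 in place of -1.04 (adjusted exact permutation p = 0.943), and that of Mre11a relative to Rad50 was -0.78 in place of 0.28 (adjusted exact permutation p = 0.0429). Nbn and Rad50 have 1 kept probe set each, and their difference stayed at -0.75, with an adjusted exact permutation p of 0.0429 in that family of 6. Their values were the same in both families, and the adjusted p fell because more pairs reached the lowest possible p.

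The remaining pairs overlapped between groups. Xrcc6 relative to Xrcc5 was higher by 0.97 ± 0.69 (SE, exact permutation p = 0.229) in one-cell embryos, with a wide spread in both groups. Bard1 relative to Brca1 differed by -0.51 ± 0.37 (exact permutation p = 0.257), and Brca2 relative to Brca1 by -0.22 ± 0.32 (exact permutation p = 0.686). With the 3 kept Brca1 probe sets averaged these differences were -1.50 and -1.22, and both passed (adjusted exact permutation p = 0.0429 each), so the comparison with Brca1 depends on which of its probe sets is read. After quantile normalization no pair passed (adjusted exact permutation p of 0.0857 or more), and Brca2 relative to Brca1 was 0.11. A p above the threshold at 4 arrays a group does not show that these partners changed alike.

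**Figure D4:**
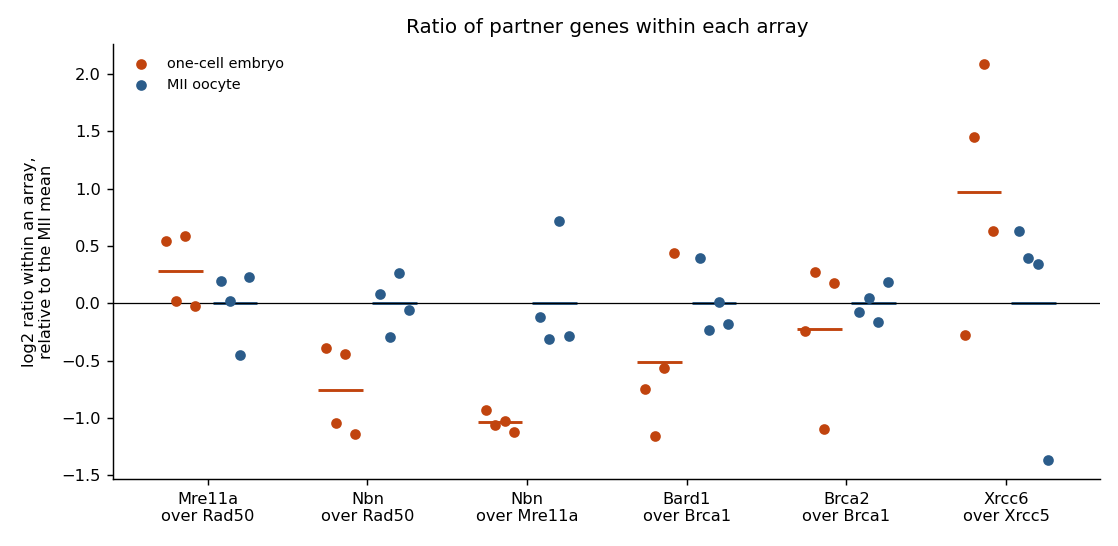
Log2 ratio of 6 partner pairs within each array, with the MII mean of each pair set to 0, one-cell embryos in orange on the left and MII oocytes in blue on the right of each pair. Horizontal lines are group means (n = 4). The ratio of Nbn to Rad50 and that of Nbn to Mre11a do not overlap between the groups.

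The wider repair pathways were read from 6 lists of other genes, each gene by its brightest kept probe set. Over all 12359 genes, 20.1% passed as higher and 14.7% as lower, with a median change of 0.16. Of 24 measured homologous recombination genes, 7 were higher and 7 lower (median 0.04), and after quantile normalization 7 and 4 (median -0.24, where that of all genes was -0.10). Counted as lower, Rad54l (-1.80) and Rad51d (-1.18) each had 2 other kept probe sets that passed as higher. With probe sets averaged, Rad54l changed by 0.24 and did not pass, and Rad51d passed as higher at 0.84 (limma adjusted p = 0.0371). No other gene counted as higher or lower in this list had a kept probe set called the other way. Rpa2, a subunit of the protein that coats single-stranded DNA, rose by 3.10 ± 0.39 from a dim MII level (190 ± 38.6 in one-cell embryos and 14.8 ± 10.7 in MII oocytes, SD, n = 4 each). The nuclease Mus81 (2.25 ± 0.36) and the resection exonuclease Exo1 (1.70 ± 0.28) also rose, Exo1 by 0.84 when its 2 probe sets were averaged. Of 15 measured genes of meiotic recombination, 1 was higher and 4 lower (median -0.23), and after quantile normalization 1 and 4 (median -0.72). The synaptonemal complex genes Sycp2 (-2.03 ± 0.34) and Sycp3 (-1.24 ± 0.25) were among the falls, and Psmc3ip, a cofactor of strand exchange, was the rise (2.97 ± 0.48), from below the median on all MII arrays.

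Among 8 measured genes of classical end joining, the pathway that Ku opens, 3 were higher and 1 lower (median 0.31), and after quantile normalization 2 and 2 (median 0.08). Nhej1, which bridges the ends, rose by 3.51 ± 0.38 from a dim MII level (346 ± 132 in one-cell embryos and 21.1 ± 10.5 in MII oocytes, SD, n = 4 each), and by 1.73 when its 2 probe sets were averaged. The gap-filling polymerase Poll rose by 1.64 ± 0.29, while Lig4, the ligase that seals the break, fell by 1.97 on the log2 scale (281.5 ± 166 in one-cell embryos and 1015 ± 339 in MII oocytes, SD, n = 4 each). Thus the Ku genes and Lig4 changed in opposite directions in this fit, and their difference was not tested. Of 8 genes of alternative end joining, 3 were higher and 1 lower (median 0.44), and after quantile normalization 2 and 1 (median 0.05). The flap nuclease Fen1 (3.43 ± 0.45) and the poly(ADP-ribose) polymerase Parp1 (1.66 ± 0.32) rose, and the scaffold Xrcc1 (-1.56 ± 0.47) fell. Parp1 changed by 1.17 when its kept probe sets were averaged.

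Of 27 genes of damage signalling at breaks, 7 were higher and 7 lower (median -0.04), and after quantile normalization 5 and 7 (median -0.15). Babam1 (3.87 ± 0.31) and Uimc1 (1.79 ± 0.29), both subunits of the complex that brings Brca1 to ubiquitin at breaks, rose, Babam1 from below the median on all MII arrays. Atmin, a cofactor of Atm, rose by 2.39 ± 0.30. Of 13 Fanconi anaemia genes, 2 were higher and 3 lower (median -0.10), and after quantile normalization 1 and 3 (median -0.34). Fancd2 (-1.58 ± 0.32) and Fancm (-1.18 ± 0.30) fell and Fanca (1.32 ± 0.30) rose, although the average of 3 Fancd2 probe sets changed by -0.26 and did not pass. With kept probe sets averaged, Fancm changed by -0.72 and Fanca by 1.05, and both passed. Apart from Rad54l and Rad51d, the genes named from these lists are the 3 with the smallest p of each. Their limma adjusted p of 0.0174 or less reflects that choice.

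**Figure D5:**
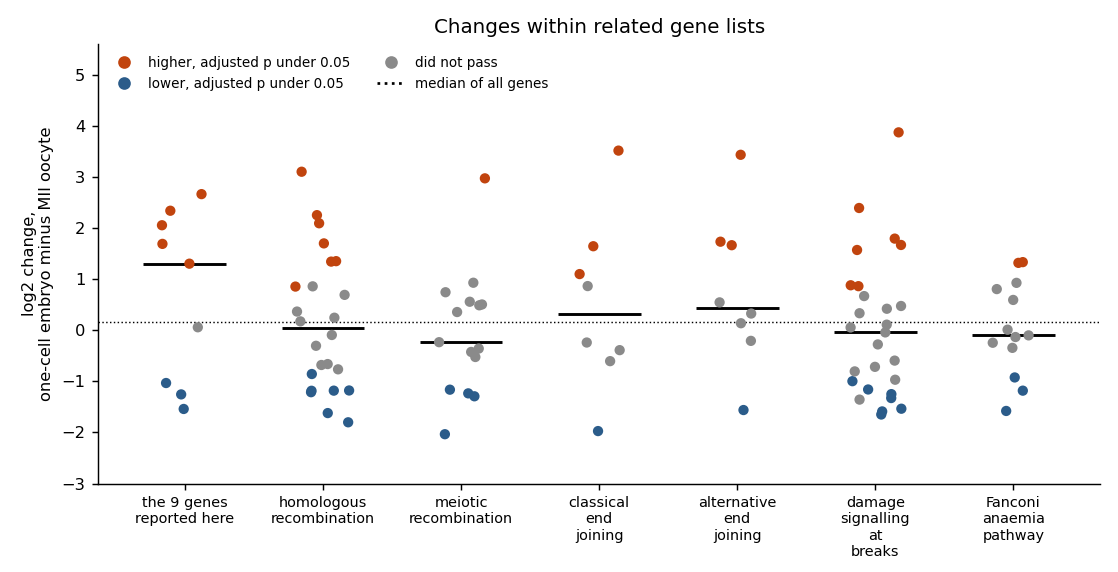
Log2 change, one-cell embryo minus MII oocyte, of each measured gene in the 9 genes reported here and in 6 lists of related genes, each point a gene by its brightest kept probe set. Orange and blue points passed the test as higher and lower, black lines are list medians, and the dotted line is the median of all genes (0.16). Each of the 6 lists holds both orange and blue points.

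For each of the 9 genes, the gene with the most similar pattern over the 8 arrays was found among 11585 others, by the root-mean-square difference of log2 values centred on each gene's own mean. Mre11a was closest to Ppp1r13b (0.11), Nbn to Lyar (0.12), Rad50 to Zfyve9 (0.13), Xrcc5 to Ago3 (0.19) and Xrcc6 to Tox2 (0.21). Brca1 was closest to Ddx5 (0.14), Brca2 to Fbxo25 (0.18), Bard1 to Efcab7 (0.31) and Atm to Etnppl (0.15). No member was closest to another member. The second nearest gene lay at 0.186 against 0.185 for Xrcc5 and at 0.16 against 0.11 for Mre11a. A nearest gene out of so many does not show shared regulation, which was not tested. For scale, the same measure of each gene against its own mean was 0.27 for Atm and 0.68 to 1.40 for the others.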

How the data were processed

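Each of the 8 arrays has 1 intensity per probe set on a linear scale, as deposited by the authors. Per the labels, polysomal RNA was amplified in 2 rounds of in vitro transcription and labelled with biotin. Neither the array software nor its scaling is named in the sources used here, and no detection calls were used. Trimmed by 2% at either end, the mean intensity of each array was 150.0, so the deposited values had been scaled and were used as they were. Of 45101 probe sets, 64 controls were left out. An offset of 10 was added before log2. The 23336 probe sets that exceeded the median of the array in 4 or more arrays were kept, and limma 3.58.1 in R 4.3.3 fitted one-cell embryo minus MII oocyte over all of them (lmFit, then eBayes with trend, two-sided tests, threshold 0.05 after Benjamini-Hochberg adjustment). The fit was tested on simulated data with known changes and noise drawn independently for each value. That simulation held no effect shared by a whole array, so it does not cover the differences in array quality. Partner ratios were compared by exact permutation tests. Of each related list the 3 genes with the smallest p were named, and for each member the gene with the nearest pattern, leaving out clone and prediction names. Rad54l, Rad51d and the further genes in the closing section were picked with their values in view. The members, lists and tests were chosen with earlier results of these data known. Symbols were updated through RefSeq gene IDs. Alternatives covered scaling, offset, filter, variance model, array weights, the replicate number, left-out arrays, the hybridization controls and averaging the probe sets of a gene. Precision is limited by having 4 arrays in each group.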

Additional observations from a re-analysis of the deposited data

Results flagged for a closer look

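Both values that stood apart from their group came from dim Brca1 probe sets that did not pass the test. Probe set 1427698_at read 190.3 on one-cell array 1 and between 48.5 and 63.2 on one-cell arrays 2 to 4. Probe set 1424630_a_at read 81.7 on MII array 1 and between 0.6 and 7.0 on MII arrays 2 to 4. In either case the gap to the next array exceeded Dixon's limit of 0.829 of the group's range. Of 32 groups looked at (16 probe sets in 2 groups), 2 were marked, where chance marks about 1 in 20.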

How the results depend on the processing

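Of 20 alternatives to the fit, 13 again called 8 member probe sets, and 18 again called 5 as higher. With the hybridization controls as a covariate, 4 were called in all and 0 as lower (limma), with 1 lower at an unadjusted p under 0.05. Leaving out single arrays gave 6 to 8 calls, with 5 higher in each and 1 to 3 lower. The lowest, 1, came without MII array 1, and 2 were lower without MII array 3, without one-cell array 4, without one-cell arrays 1 and 4 together or with arrays centred on their median. A filter at the 75th percentile left 6 member probe sets to test, without Bard1 and Xrcc5. All of these passed, 4 as higher and 2 as lower. Over all genes 5778 to 8597 probe sets passed, against 7493 as reported, and 6077 to 8058 with a left-out array. The brightest Brca1 probe set lost its call in 6 alternatives, Bard1 in 2, and Brca2 and Xrcc5 in 1 each. Mre11a, Rad50, Nbn and Xrcc6 kept theirs in all. With the replicate number as a block, 7209 probe sets passed, and 8 member probe sets (5 higher, 3 lower), so no member call changed. The numbers did not pair the arrays: deviations of same-numbered arrays correlated from -0.16 to 0.14, and not every array correlated best with its own number. The paired form of the exact permutation test of partners cannot go below p = 0.125, and with a left-out array it cannot go below 0.0571, so neither could make a call. With probe sets of a gene averaged, 4 partner pairs passed in place of 0, and Mre11a relative to Rad50 turned to -0.78 (adjusted exact permutation p = 0.0429). The causes were not tested.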

Other observations

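Among the 5 subunits, besides Brca1 and Bard1, of the complex that brings Brca1 to ubiquitin chains at breaks, picked with their values in view, Babam1 (3.87 ± 0.31), Uimc1 (1.79 ± 0.29) and Babam2 (1.67 ± 0.32) rose in one-cell embryos (limma adjusted p = 3.18e-07, 0.000178 and 0.000774), where 20.1% of all genes were higher. The scaffold Abraxas1 (0.47 ± 0.29) and the deubiquitinase Brcc3 (0.33 ± 0.26) did not pass (limma adjusted p = 0.238 and 0.38). Babam1 lay above the array median on 4 one-cell arrays and 0 MII arrays, so it was kept only through its one-cell signal. Uimc1 averaged 369 ± 68.5 in one-cell embryos and 101 ± 25.3 in MII oocytes (SD, n = 4 each). The mean of both Babam2 probe sets changed by 0.73 and did not pass (limma adjusted p = 0.0626).

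Prkdc, the catalytic subunit that Ku recruits to DNA ends, rose by 1.10 ± 0.37 (109 ± 41.3 in one-cell embryos and 45.1 ± 15.9 in MII oocytes, SD, n = 4 each, limma adjusted p = 0.0308), and was at 0.68 after quantile normalization, which did not pass (limma adjusted p = 0.166). Palb2, the bridge between Brca1 and Brca2, fell by 0.86 on the log2 scale (457 ± 127 in one-cell embryos and 841 ± 284 in MII oocytes, SD, n = 4 each, limma adjusted p = 0.0421), and changed nearly as much after quantile normalization, at -0.83, but missed the threshold there (limma adjusted p = 0.0946). H2ax, the histone that is phosphorylated around breaks, changed by -1.25 ± 0.34 (limma adjusted p = 0.00895), and by -1.29 after quantile normalization (adjusted p = 0.0167). Of the subunits of the single-strand binding protein, Rpa2 rose by 3.10 ± 0.39, Rpa1 did not pass at -0.09 ± 0.38 (limma adjusted p = 0.89), and Rpa3 was at -1.18 ± 0.35 (limma adjusted p = 0.0146), or -1.07 after quantile normalization, just short of a call (limma adjusted p = 0.0501). Rpa2 lay above the array median on 4 one-cell arrays and 0 MII arrays, so it was kept only through its one-cell signal. Differences between the Rpa subunits were not tested.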
